A study of Mus musculus with 6 samples.

Results

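Tuft cells are chemosensory epithelial cells that carry a tuft of microvilli, and a subset of medullary thymic epithelial cells (mTEC) adopts the same programme in the thymus. The lineage depends on the POU domain transcription factor Pou2f3, tuft cells sense luminal or local signals through a taste-like cascade, and they release the cytokine IL-25 and acetylcholine. The 10 genes described here were taken by symbol as regulators and markers of that identity: the regulators Pou2f3 and Gfi1b, the cytoskeletal and surface genes Dclk1, Avil and L1cam, the signalling and membrane genes Sh2d6, Sh2d7 and Lrmp (also called Irag2), and the effectors Il25 and Chat. All 10 were found among the 43432 gene IDs of the deposited table of raw read counts, and all 10 were among the 17172 genes with enough counts to be tested.

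The libraries came from mTEC of C57BL/6 mice aged 4 weeks, with 3 libraries of CopaE241K/+ mice (MUT), heterozygous for the E241K allele of the COPI coat subunit gene Copa, and 3 libraries of Copa+/+ mice (WT). No treatment is given in the labels. Nothing in them tells separate animals from pooled ones. The p-values below therefore set the difference between genotypes against the variation between libraries, technical variation included. Library totals ran from 19934513 to 23366238 counts. The defining mTEC genes, among them Epcam, Aire, Fezf2 and Krt5, were counted in all 6 libraries, and the 12 listed epithelial markers summed to 10060 to 11910 CPM in MUT and 10670 to 13260 CPM in WT. The largest part of each sum was H2-Aa, so the sums are no measure of epithelial content. Of the 12, 6 were fitted lower in MUT and 6 higher. Epcam alone had every MUT library (417.8, 441.4 and 593.2 CPM) below every WT library (628.7, 641.0 and 751.2 CPM), as did 3.96% of all genes tested. CPM values are counts scaled to a common library size, with TMM-adjusted sizes, and differences are log2 fold changes, MUT minus WT, with their standard error (SE).

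Tuft cells do not form without Pou2f3, whose protein family binds the octamer ATGCAAAT, so the start regions of the members are shown with the stretches nearest to that motif. RefSeq promoter windows on GRCm38.p6, 250 bases before to 50 after a start site, were on file for 7 of the 10 members, in 9 windows. Entries for Pou2f3, Lrmp and Il25 were not used here. None of the 9 windows held ATGCAAAT on either strand, a motif found in 1.74% of all 32851 promoter windows. 1 of the 9, that of Sh2d7, held the form ATGNAAAT, against 5.67% of all windows. With at most 1 letter different from the octamer, a form chosen after the first search had been seen that includes both motifs above, 4 of the 9 windows held a match, against 18.6% of all windows. A match is a description of letters and shows no binding. The 250 bases before the start site of those 4 genes are given 5′ to 3′ on the strand of the gene, with the matches in capitals.
Avil, chr10:127000459-127000708, plus strand: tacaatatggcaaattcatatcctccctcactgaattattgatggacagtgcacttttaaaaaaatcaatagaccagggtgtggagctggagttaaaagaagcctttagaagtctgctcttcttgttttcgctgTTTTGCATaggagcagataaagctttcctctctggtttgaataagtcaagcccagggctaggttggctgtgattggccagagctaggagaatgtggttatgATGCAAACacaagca
Gfi1b, chr2:28621983-28622232, minus strand: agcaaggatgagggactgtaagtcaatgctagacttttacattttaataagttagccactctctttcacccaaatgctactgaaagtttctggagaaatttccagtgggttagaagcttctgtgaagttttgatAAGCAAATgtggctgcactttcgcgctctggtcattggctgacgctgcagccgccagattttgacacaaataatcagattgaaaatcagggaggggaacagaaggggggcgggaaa
Sh2d7, chr9:54533873-54534122, plus strand: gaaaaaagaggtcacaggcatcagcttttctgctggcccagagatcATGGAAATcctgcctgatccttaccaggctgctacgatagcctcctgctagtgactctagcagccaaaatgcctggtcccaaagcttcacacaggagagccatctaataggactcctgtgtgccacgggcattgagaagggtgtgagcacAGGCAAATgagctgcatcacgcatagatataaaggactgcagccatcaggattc
Chat, chr14:32465910-32466159, minus strand: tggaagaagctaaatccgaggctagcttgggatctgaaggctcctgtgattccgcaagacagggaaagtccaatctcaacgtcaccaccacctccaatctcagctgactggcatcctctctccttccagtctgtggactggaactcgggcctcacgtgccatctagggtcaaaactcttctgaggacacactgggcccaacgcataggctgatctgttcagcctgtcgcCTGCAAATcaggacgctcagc
Avil had 2 matches in this stretch and 1 more that crosses the start site and is not capitalised. The RefSeq start of Sh2d7 lies 4861 bases before the gene start of GENCODE M21, and the bases after it were in no GENCODE M21 transcript of the gene, so this window may not be the one used in mTEC. The windows of Dclk1, L1cam and Sh2d6 held no match.

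All 10 members had a fitted value below 0, that is, lower in MUT, with a median log2 fold change of -1.48. Over all genes tested 50.6% had a fitted value below 0, and the median was -0.01. The members were chosen with earlier results of these data known, and several varied together over the libraries. The count of 10 is therefore no test of a shared direction. In the quasi-likelihood test of edgeR, no member had an adjusted p under 0.05, and neither did any other gene (0% called of 17172). DESeq2 called no member either, with 0.629% of 18448 genes called. In the edgeR test the adjusted p was 0.999875 for each of the 10. At an unadjusted p under 0.05 there were 3 members, Dclk1, Sh2d7 and Lrmp, all lower in MUT, while 1.85% of all genes tested were lower at that level and 3.48% passed it in either direction. The genotypes did not overlap for 2 members, Gfi1b and Dclk1, against 3.96% of all genes tested with every MUT library below every WT library. No member was called in either test, so a difference beyond the variation between libraries is not established. Were there one, fewer tuft cells and less RNA per tuft cell could not be told apart in these bulk samples.

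**Figure D1:**
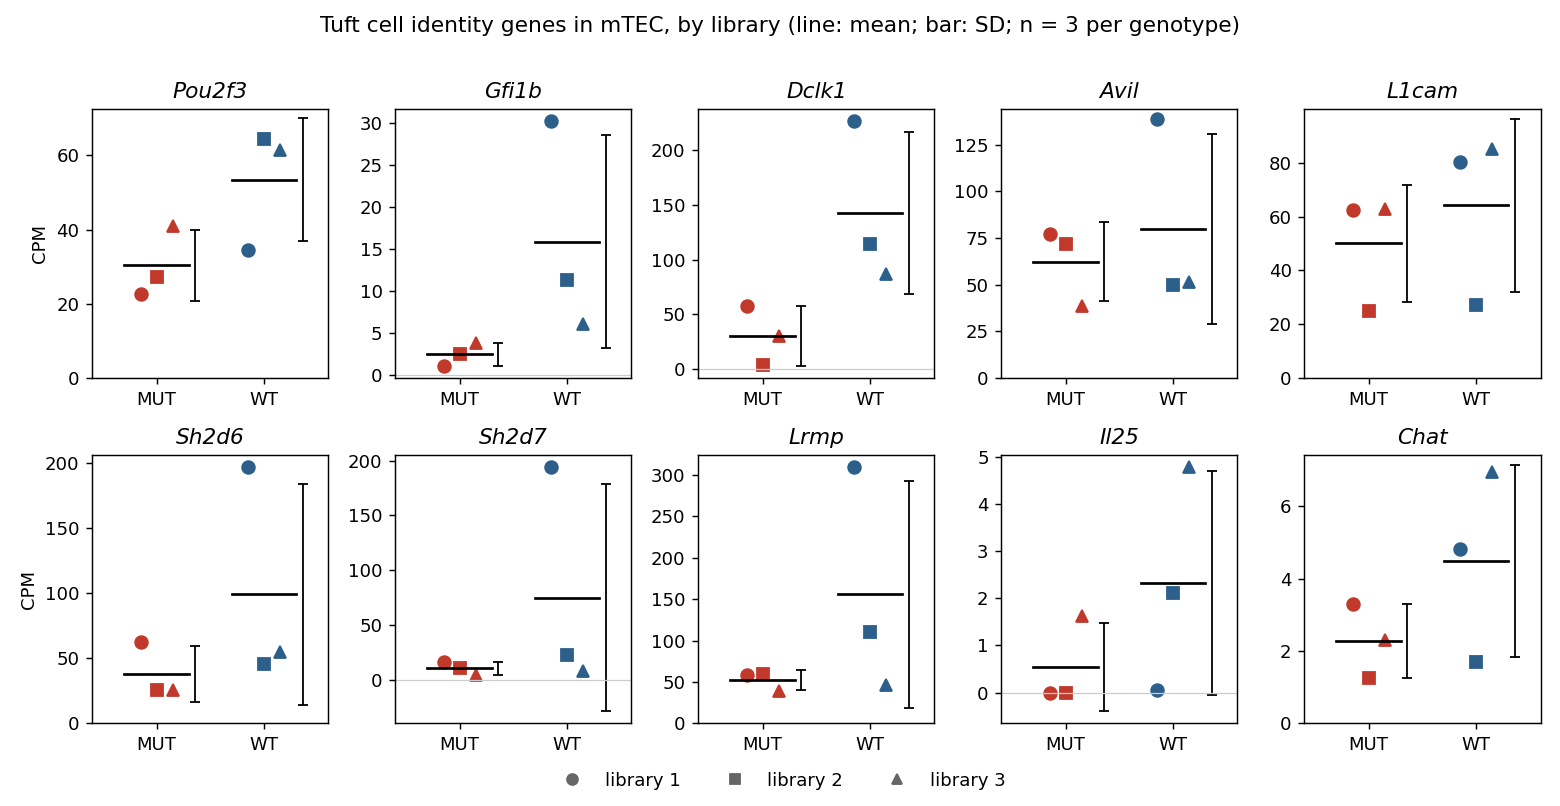
CPM of each of the 10 members (vertical axes, one scale per gene) in 3 MUT and 3 WT libraries (horizontal axes); the marker shape gives the library number, the line the mean and the bar the SD. Only for Gfi1b and Dclk1 do all MUT points lie below all WT points. WT library 1 stands far above the other libraries for Gfi1b, Dclk1, Avil, Sh2d6, Sh2d7 and Lrmp.

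The members were spread widely among the WT libraries. WT library 1 held the highest value of 6 members, Gfi1b, Dclk1, Avil, Sh2d6, Sh2d7 and Lrmp, and was the highest library for 22.9% of all genes tested. The members summed to 362.2, 226.7 and 248.7 CPM in MUT libraries 1, 2 and 3, against 1216, 449.0 and 411.9 CPM in WT libraries 1, 2 and 3. Each of the 3 MUT sums lay below each of the 3 WT sums, though only 2 of the 10 members did so singly. A sum follows its most abundant members, and the list was chosen with earlier results known. Without WT library 1 the median log2 fold change of the members was -0.75. Genes with at least 1 count numbered 19329, 20188 and 24774 in MUT libraries 1, 2 and 3 and 17174, 19558 and 21755 in WT libraries 1, 2 and 3, fewest in WT library 1, and the part of this in the members' values was not tested.

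Of the regulators, Pou2f3, the transcription factor on which the lineage depends (ENSMUSG00000032015, GRCm38 chromosome 9, 43123939 to 43210369), measured 22.6, 27.3 and 41.1 CPM in MUT libraries 1, 2 and 3 and 34.4, 64.5 and 61.4 CPM in WT libraries 1, 2 and 3. Both MUT libraries 1 and 2 lay below all WT libraries, while MUT library 3 lay above WT library 1. The log2 fold change was -0.82 (SE 0.57, two-sided exact permutation p = 0.2). Pou2f3 was one of the members whose highest library was not WT library 1, and its value without that library was -1.06.

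Gfi1b, a zinc finger repressor that tuft cells share with erythroid and megakaryocytic cells (ENSMUSG00000026815, chromosome 2, 28609450 to 28621982), was counted 24, 53 and 107 times in MUT libraries 1, 2 and 3, against 525, 241 and 138 times in WT libraries 1, 2 and 3. All MUT values, at 1.13, 2.54 and 3.87 CPM, lay below all WT values, at 30.2, 11.4 and 6.07 CPM. The log2 fold change was -2.65 (SE 1.23), with a two-sided exact permutation p = 0.1, the smallest that 20 assignments of the libraries allow. Without WT library 1 it was -1.80. The 9 erythroid and megakaryocyte markers summed to 121.7, 169.7 and 56.1 CPM in MUT libraries 1, 2 and 3 and 31.02, 145.7 and 95.2 CPM in WT libraries 1, 2 and 3. Of the 8 that were tested, 2 had a fitted value below 0. Single markers differed. For Hba-a1, an alpha globin gene, every MUT library lay below every WT library, as for Gfi1b and 3.96% of all genes tested. Its highest value, in WT library 1, was 11.49 CPM against 11.44 CPM in WT library 3. Itga2b, in contrast, had every MUT library above every WT library, as did 5.39% of all genes tested. It was counted 12, 62 and 35 times in MUT libraries 1, 2 and 3 and 0, 7 and 0 times in WT libraries 1, 2 and 3. Itga2b passed the count filter through its MUT counts alone, so its order is no support for a difference. The alpha globin gene Hba-a2 was fitted higher in MUT (log2 fold change 0.82, SE 1.07). The beta globin gene Hbb-bs was lowest in WT library 1, at 1.49 CPM. Gata1, a defining factor of those lineages, was at 0 in every library but MUT library 3. The part of these cells in Gfi1b was not tested.

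Among the cytoskeletal and surface genes, Dclk1, a microtubule-associated kinase used as the standard marker of tuft cells (ENSMUSG00000027797, chromosome 3, 55242364 to 55539068), measured 57.9, 3.35 and 30.0 CPM in MUT libraries 1, 2 and 3 and 226.6, 114.8 and 87.1 CPM in WT libraries 1, 2 and 3. The genotypes did not overlap, and MUT library 2, with 70 counts, stood far below the others. The log2 fold change was -2.23 (SE 0.79, unadjusted p 0.016 in edgeR's fit, two-sided exact permutation p = 0.1). It ran from -3.10 to -1.71 with each of the 6 libraries left out in turn. Without WT library 1 it was -1.73 (unadjusted p 0.055 in edgeR's fit). Dclk1 was called by edgeR when no gene was filtered out (adjusted p 0.019), where 0.253% of 28820 genes were called. It was also called by DESeq2 with the library number as a block (adjusted p 0.014), where 1.8% of 17086 were. That setting was added after seeing the data. No other setting called Dclk1, among them DESeq2 without the block (adjusted p 0.42) and edgeR with the block. RefSeq gives Dclk1 a pair of start sites 219364 bases apart, which the gene count does not separate.

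Avil, which encodes the actin-binding protein advillin (ENSMUSG00000025432, chromosome 10, 127000709 to 127020994), measured 76.8, 71.9 and 38.3 CPM in MUT libraries 1, 2 and 3 and 138.5, 49.5 and 51.1 CPM in WT libraries 1, 2 and 3. The genotypes overlapped, with MUT libraries 1 and 2 above WT libraries 2 and 3. The log2 fold change of -0.35 (SE 0.54, two-sided exact permutation p = 0.8) became 0.31 without WT library 1.

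L1cam, an adhesion molecule best known from neurons (ENSMUSG00000031391, chromosome X, 73853778 to 73896105), measured 62.4, 24.9 and 62.9 CPM in MUT libraries 1, 2 and 3 and 80.3, 27.0 and 85.2 CPM in WT libraries 1, 2 and 3. In both genotypes library 2 was the low one, and the genotypes overlapped. Its fitted difference was -0.36 (SE 0.59, two-sided exact permutation p = 0.5) on the log2 scale. The 7 neural and Schwann cell markers, summed, measured 25.0 to 47.6 CPM in MUT and 34.1 to 59.4 CPM in WT, and their part in L1cam was not tested.

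The signalling and membrane genes were each highest in WT library 1. Sh2d6 and Sh2d7 encode proteins with an SH2 domain, a fold that binds phosphotyrosine, and Lrmp encodes a membrane protein of the endoplasmic reticulum that lymphocytes also express. Sh2d7 (ENSMUSG00000046460, chromosome 9, 54538984 to 54545020) had the largest fitted difference of the 10 members. It measured 16.3, 10.4 and 4.19 CPM in MUT libraries 1, 2 and 3 and 194.2, 22.1 and 8.01 CPM in WT libraries 1, 2 and 3. WT library 3 lay below MUT libraries 1 and 2, so the genotypes overlapped. The log2 fold change was -2.86 (SE 1.05, unadjusted p 0.018 in edgeR's fit, two-sided exact permutation p = 0.3), and -0.54 without WT library 1.

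Sh2d6 (ENSMUSG00000052631, chromosome 6, 72513641 to 72521707) measured 62.9, 25.6 and 25.5 CPM in MUT libraries 1, 2 and 3 and 197.5, 45.4 and 54.7 CPM in WT libraries 1, 2 and 3. MUT library 1 lay above WT libraries 2 and 3. On the log2 scale the difference was -1.38 (SE 0.65, two-sided exact permutation p = 0.3), and -0.40 without WT library 1. Lrmp (ENSMUSG00000030263, chromosome 6, 145115653 to 145174934) measured 58.9, 59.4 and 39.1 CPM in MUT libraries 1, 2 and 3 and 309.7, 110.4 and 46.6 CPM in WT libraries 1, 2 and 3. MUT values lay close together, and WT library 3 fell among them. Its log2 fold change was -1.57 (SE 0.60, unadjusted p 0.024 in edgeR's fit, two-sided exact permutation p = 0.3), and -0.58 without WT library 1.

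Lymphocytes also express Lrmp, and their markers did not share 1 order over the libraries. The 6 B cell markers summed to 35.3, 88.8 and 27.9 CPM in MUT libraries 1, 2 and 3 and 24.1, 51.3 and 58.0 CPM in WT libraries 1, 2 and 3, and 3 of the 6 had a fitted value below 0. In WT library 1, Pax5 and Blk were at 0 counts and Cd79b was at its lowest, while Ms4a1 had 9.14 CPM there, above the other WT libraries. The 8 thymocyte markers summed to 175.5, 646.7 and 110.7 CPM in MUT and 287.2, 453.0 and 178.9 CPM in WT, and 5 of the 8 had a fitted value below 0. Cd3e was highest in WT library 1, at 128.6 CPM against 128.2 CPM in MUT library 2, and Cd4 was lowest there. The part of lymphocytes in Lrmp was not tested.

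The effector genes had the lowest levels of the members. Il25, the cytokine through which tuft cells act on type 2 lymphoid cells (ENSMUSG00000040770, chromosome 14, 54932695 to 54935837), was counted 0, 0 and 45 times in MUT libraries 1, 2 and 3, and 1, 45 and 109 times in WT libraries 1, 2 and 3. It was hardly counted in either library numbered 1, and a count of 0 allows up to 0.142 CPM in MUT library 1 and 0.144 CPM in MUT library 2, for counting error only. A log2 fold change of -2.08 (SE 2.48, two-sided exact permutation p = 0.2) was fitted, and -0.99 without WT library 3. Chat, the enzyme that makes acetylcholine (ENSMUSG00000021919, chromosome 14, 32408203 to 32465989), measured 3.30, 1.25 and 2.31 CPM in MUT libraries 1, 2 and 3 and 4.83, 1.70 and 6.95 CPM in WT libraries 1, 2 and 3. The genotypes overlapped through WT library 2, and the log2 fold change was -0.97 (SE 1.65, two-sided exact permutation p = 0.3). Slc18a3, the acetylcholine transporter gene that lies inside the Chat locus, was counted 0, 11 and 5 times in the MUT libraries and 0, 5 and 7 times in the WT libraries, too rarely to be tested.

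**Figure D2:**
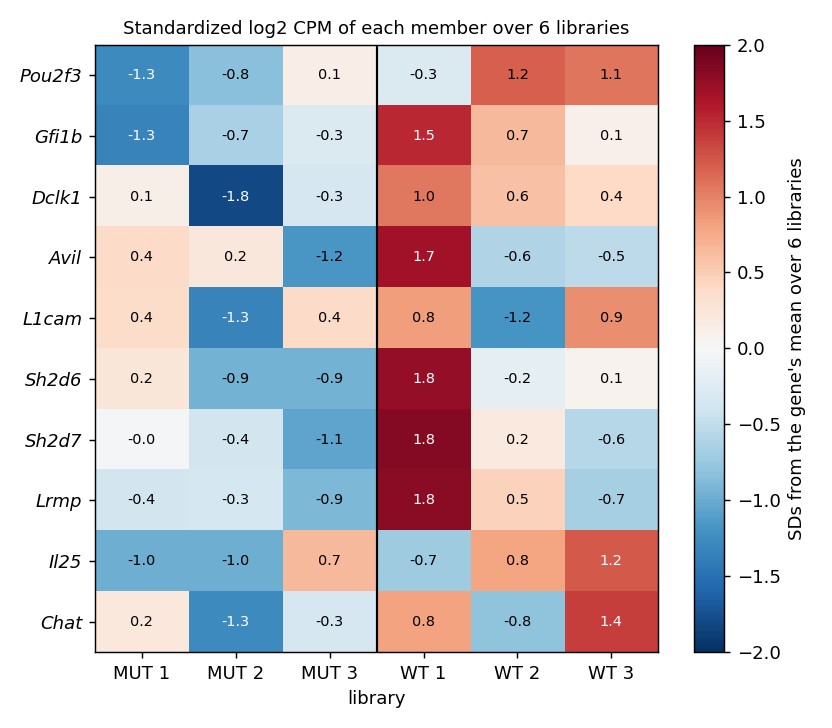
Standardized log2 CPM of the 10 members (rows, in the order regulators, cytoskeleton and surface, signalling, effectors) in the 6 libraries (columns, MUT left of the line); colour and number give the distance from the gene's mean over 6 libraries, in SDs. WT library 1 is the high column for Gfi1b, Dclk1, Avil, Sh2d6, Sh2d7 and Lrmp, while Pou2f3 and Il25 are below their mean there and above it in WT libraries 2 and 3.

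The members did not share 1 profile over the libraries. Avil, Sh2d6, Sh2d7 and Lrmp had their highest value in WT library 1 and their lowest in MUT library 3. L1cam and Chat were lowest in MUT library 2 and highest in WT library 3. Pou2f3 was lowest in MUT library 1, and Il25 was at 0 in both MUT libraries 1 and 2. Both genes were lower in WT library 1 than in the other WT libraries. Every MUT library lay below both WT libraries 2 and 3 for 4 members, Pou2f3, Gfi1b, Dclk1 and Il25, against 9.28% of all genes tested. That comparison leaves out WT library 1, the highest library for most members, and the members were chosen with earlier results known. The count of 4 is therefore no support for a difference.

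**Figure D3:**
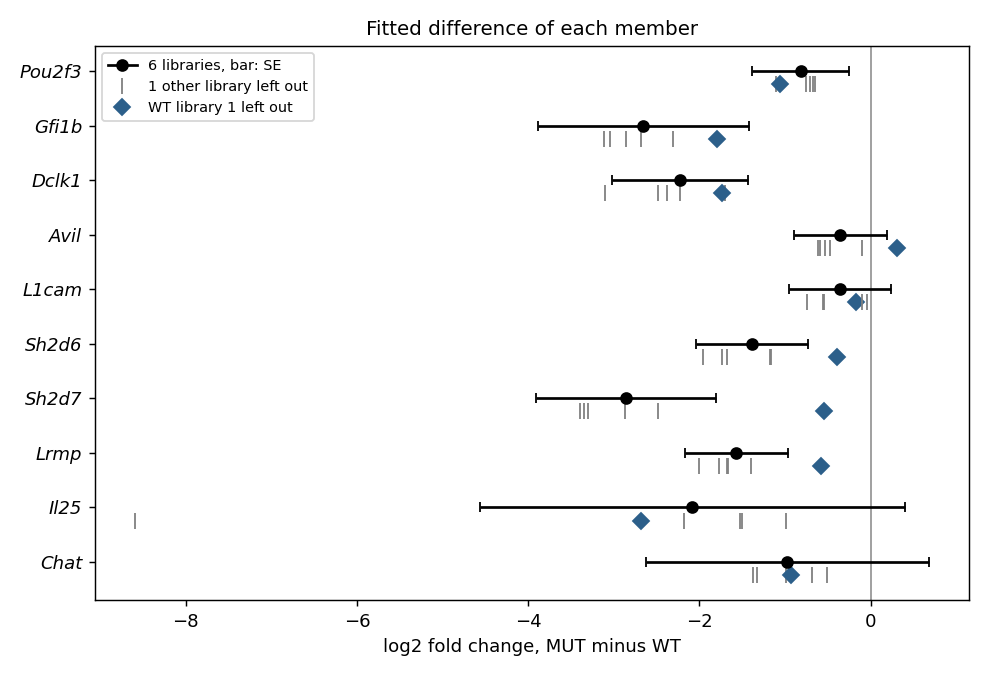
Fitted log2 fold change, MUT minus WT (horizontal axis), of each member (vertical axis); the circle with its SE bar uses 6 libraries, grey ticks leave out 1 library and the blue diamond leaves out WT library 1. Sh2d7 is at -2.86 with all libraries and at -0.54 without WT library 1, and Avil crosses 0; the tick of Il25 at the far left has only MUT libraries without a count and is no estimate of size.

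Per length of the merged exons, the members ranked from Sh2d6, at a mean of 40.6 CPM per kb over the 6 libraries, through Lrmp (25.6), Avil (20.9), Sh2d7 (15.4), Pou2f3 (13.6), L1cam (7.77), Dclk1 (5.66), Gfi1b (5.02) and Il25 (1.35) to Chat (0.721). Between neighbours in this order, the difference was within the larger of their SDs over libraries in 8 of the 9 pairs, all but Pou2f3 and L1cam. Dclk1 was scaled by all its exons together, 15296 bases, which lowers its value if mTEC use only its shorter transcripts. Exons of 4 members overlap those of another gene that was counted: L1cam with Arhgap4 on the same strand, and Avil with Tsfm, Sh2d7 with Cib2 and Lrmp with Casc1 on the opposite one. The strand setting of the counting is not given, so reads in these overlaps are uncertain. The partners had 126 to 1201 counts for Arhgap4, 10 to 171 for Tsfm, 0 to 80 for Cib2 and 4 to 210 for Casc1.

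Other tuft cell genes lay on both sides of 0. Of 58 listed genes in 6 groups, 56 were in the table and 50 were tested, of which 32 (64.0%) had a fitted value below 0, with a median log2 fold change of -0.26. None passed the adjusted test. The taste cascade had 6 of 10 tested genes below 0 and a median of -0.58. Its abundant members were Gnat3, the taste G protein gustducin, at 62.6 ± 13.5 CPM in MUT and 152.1 ± 136.9 CPM in WT (log2 fold change -1.28, SE 0.58, and -0.23 without WT library 1), the cation channel gene Trpm5 (-0.67, SE 0.49) and the phospholipase gene Plcb2 (-0.48, SE 0.45; CPM values are mean ± SD, n = 3 each). Gnat3 and Trpm5 were highest in WT library 1, as were most members.

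Effectors and receptors of type 2 and eicosanoid signalling had 6 of 10 tested genes below 0 and a median of -0.91, and the 3 most abundant of them had fitted values above 0: Il4ra (0.17, SE 0.43), Il13ra1 (0.01, SE 0.56) and Ptgs1 (0.41, SE 0.76). Signalling genes shared with leukocytes had 11 of 14 below 0 and a median of -0.42. The 8 dendritic cell and macrophage markers had 7 below 0 and a median of -0.74, and summed to 115.0, 333.6 and 135.8 CPM in MUT libraries 1, 2 and 3 and 171.0, 377.2 and 208.3 CPM in WT libraries 1, 2 and 3. Among them the macrophage marker Adgre1 was highest in WT library 1 (log2 fold change -2.04, SE 0.95). It alone of the 8 had every MUT library below every WT library, as did 3.96% of all genes tested. Single markers differed. Itgax was also highest in WT library 1, Flt3, Xcr1, Clec9a and Cd68 in WT library 2, Csf1r in WT library 3 and Itgam in MUT library 2. Flt3 and Clec9a were lowest in WT library 1, at 0.287 and 0 CPM. Itgam was fitted higher in MUT (log2 fold change 0.18, SE 0.73). The part of myeloid cells in the tuft cell genes was not tested. In the signalling group Pik3r5, a regulatory subunit of a phosphoinositide kinase, measured 101.2, 97.1 and 69.4 CPM in MUT libraries 1, 2 and 3 and 238.0, 172.4 and 149.3 CPM in WT libraries 1, 2 and 3. Its genotypes did not overlap (log2 fold change -1.06, SE 0.37, and -0.85 without WT library 1). Rac2 (-0.22, SE 0.46) and Ptprc (1.25, SE 0.88), the pan-leukocyte CD45 gene, were the other abundant genes of the signalling group, and both were highest in MUT library 2.

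The other regulators had 5 of 8 genes below 0, a median of -0.37, and abundant genes near 0: Spib (0.08, SE 0.38), Hipk2 (-0.17, SE 0.36) and Sox9 (0.48, SE 0.41). The coactivator symbols Pou2af2 and Pou2af3 had no match. Structural and surface genes had 2 of 6 below 0 and a median of 0.18, with Mctp1 at -0.28 (SE 0.45), Vil1 at -0.89 (SE 0.70) and Pls1 at 0.26 (SE 0.48). Of the cholinergic genes, Ache (-0.24, SE 0.32) and Bche (-0.23, SE 0.42) were tested. MUT lay below WT without overlap for 5 of the 50 genes, named after their values were seen: Alox5, Il17rb, Sucnr1, Vav1 and Pik3r5. The share over all genes tested was 3.96%, and Sucnr1 passed the count filter through its WT counts alone, so the count is no support for a difference. For the sweet and umami receptor subunit gene Tas1r3, likewise named afterwards, MUT lay above WT at 51.9, 29.7 and 20.1 CPM against 2.87, 8.99 and 12.6 CPM (log2 fold change 2.05, SE 0.85). Over all genes tested, 5.39% had every MUT library above every WT library.

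**Figure D4:**
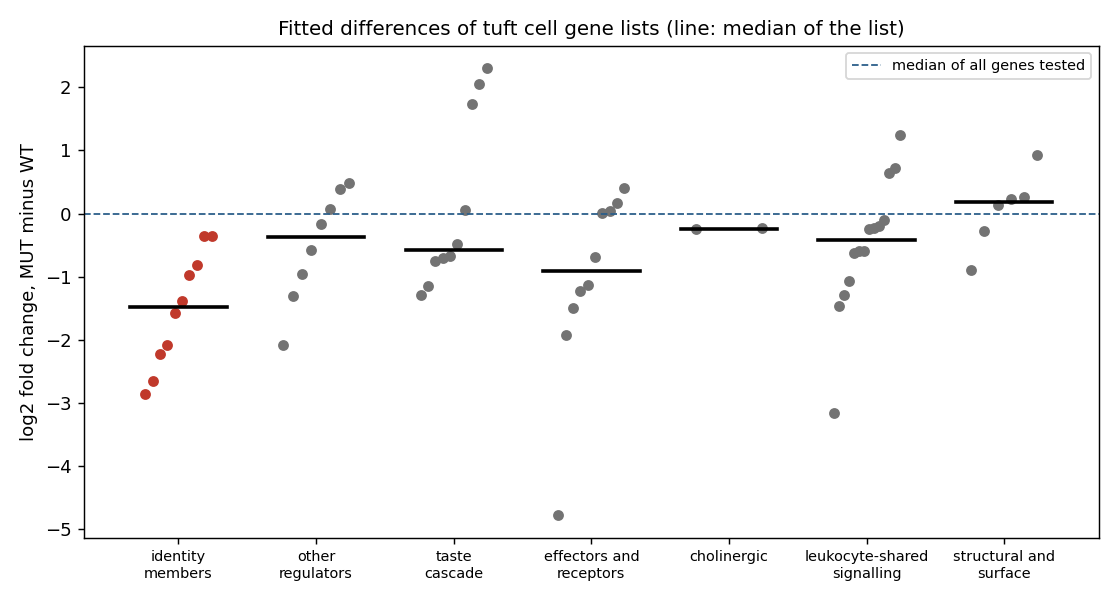
Fitted log2 fold change, MUT minus WT (vertical axis), of the tested genes of each tuft cell list (horizontal axis); points are genes, sorted within a list, and the line is the list's median. All 10 identity members lie below 0, at a median of -1.48, while the other lists lie on both sides except for the 2 cholinergic genes; the dashed line is the median of all genes tested, -0.01.

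The genes whose levels over the 6 libraries were most like the members' mean standardized log2 CPM, among non-members with a mean of at least 5 CPM, were Sept8, Rasl11a, Nadk, 4930539E08Rik, Slc25a51, Ppp1r16b, Zmym3 and Ttll3. Their likeness, as Pearson's r over 6 libraries, ran from 0.979 to 0.993 and is a description of genes picked for it out of 17172. All 8 were highest in WT library 1 and lowest in MUT library 2, the order that the members' mean level followed.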

How the data were processed

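RNA of mTEC was extracted with a column kit, amplified to cDNA by the Nugen Ovation method and made into Nextera XT libraries, per the labels' protocols. The authors deposited raw read counts per Ensembl gene ID, 1 column per library, with no normalization. STAR 2.4.2a, DESeq2 1.26.0 and GRCm38 are named in the submitters' processing notes, with no role stated; how reads were assigned to genes, with which annotation and whether by strand, is not given in the sources used here. No row lacked a gene ID, and 42462 of the 43432 IDs were matched to a symbol. Reads of amplified cDNA are no independent molecules, and a floor of 3 counts covers counting error only.

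Groups and library numbers came from the sample titles. The table was fitted whole with edgeR 4.0.16 (R 4.3.3): filterByExpr, TMM factors, robust quasi-likelihood F-tests, MUT minus WT, Benjamini-Hochberg adjustment over 17172 genes at 0.05. The exact permutation test compared mean CPM over the 20 assignments of 3 and 3 libraries and was two-sided. Log2 CPM used a prior count of 2. Coordinates and exon lengths are GENCODE M21 on GRCm38. Alternatives were a replicate block, DESeq2 size factors, upper-quartile factors, no filter, a filter of at least 1 CPM in 3 libraries and 50 counts in all, DESeq2 1.42.0, limma-voom (limma 3.58.1) and each library left out; DESeq2 with the block was added after seeing the data. The fits were run on simulated counts with known changes. The pass rule covered only large changes in edgeR at a spread set lower than that of these data. It therefore does not show what the tests can detect here. Beside the 10 members, the 3 most abundant tested genes of each other tuft list and the 8 genes most like the members were named by rule. The members and lists were chosen with earlier results of these data known.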

Additional observations from a re-analysis of the deposited data

How the results depend on the processing

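The count of 0 genes and 0 members called by edgeR held with DESeq2 size factors, upper-quartile factors, the stricter filter, limma-voom and any 1 library left out (range 0 to 0); 597 genes had an unadjusted p under 0.05. The genes called became 308 with DESeq2 and the block together, 116 with DESeq2 alone, 73 without a filter and 1 with the replicate block in edgeR. Members called became 2 without a filter, Dclk1 (adjusted p 0.0186) and Sh2d7 (0.0337), and 1, Dclk1 (0.0136), with DESeq2 and the block, where 1.8% of 17086 genes were called; the cause was not tested. The members' median log2 fold change ran from -1.75 to -0.75 with 1 library left out, and from -1.50 to -1.14 under the other alternatives. Without WT replicate 1 it was -0.75, and Avil, at -0.61 to 0.31 with 1 library left out, turned to 0.31; no other member changed direction under any alternative. For the other tuft lists, 29 to 37 genes lay below 0 with 1 library left out, and the median ran from -0.59 to -0.14. Libraries with the same number have source names that end alike, which may mark a shared day or batch, but no label says so. The deviations of same-numbered libraries correlated at 0.1, 0.0592 and 0.127, though 6 of 6 libraries matched best with their own number. With the replicate block no member was called and the members' median was -1.18. MUT lay below WT in every same-numbered pair for 9 members, against 11.3% of all genes tested. The members share the same library pairs and were chosen with earlier results known, so this count is no support for a difference. Il25, Chat and Gfi1b rest on the fewest counts among the members in MUT, which limits what their values can show.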
